A study of Mus musculus with 16 samples.

Results

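The clustered protocadherins are cell surface adhesion proteins whose genes stand in 3 neighbouring clusters named alpha, beta and gamma. All entries of the deposited files whose symbol belongs to one of these clusters were taken, which gave 25 entries among the 37583 genes listed. They were 2 alpha entries, 22 beta entries and 1 gamma entry. The rule used names and no measured value, although the family was picked with earlier results of these data known.

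RNA was sequenced from the cortex and the cerebellum of 8 mice of strain C57BL/6J, giving 16 libraries in 4 groups of 4. The groups were wild-type cortex, wild-type cerebellum, A391T cortex and A391T cerebellum, where A391T mice carry a missense variant of Slc39a8 (the labels also call it A393T). The study's methods give male sex, an age of 12 weeks and frozen, unperfused tissue from blunt dissection for its sequenced wild-type mice. They take both regions from the same animals, and give no age or sex for the A391T mice. No promoter, Cre or drug was part of the design. Mice are numbered 1 to 4 within each genotype.

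As background, a neuron expresses its own small set of clustered protocadherins, chosen by the use of alternative promoters that CTCF and cohesin bring to distant enhancers. The proteins bind to identical proteins on a facing membrane, which lets branches of 1 neuron recognise and avoid each other, as in Purkinje cells of the cerebellum. In the alpha and gamma clusters each variable exon is spliced to constant exons shared by the whole cluster. Each beta gene ends without a constant region, and most beta genes have 1 exon.

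This gene structure decided what the counts could show. On the NCBIM37 (mm9) assembly the 25 entries lie on the plus strand of chromosome 18 between 37089939 and 38001527. The entry called Pcdha4 (ENSMUSG00000007440) runs from 37089939 to 37347311 and holds 10 transcripts with 10 different first exons, so it pools alpha isoforms. The entry called Pcdhga9 (ENSMUSG00000023036) runs from 37833989 to 38001527, likewise with 10 transcripts and 10 different first exons, and pools gamma isoforms. Variable exons outside these annotated transcripts were not looked for. GENCODE calls the same identifiers Pcdha11 and Pcdhgc5. Pcdha3 (ENSMUSG00000091969) is a separate entry of 2439 exon bases inside the alpha cluster, with none of the constant exons. Under the names of the RPKM table none of the 5 C-type isoforms, which end the alpha and gamma clusters and are found in most neurons, has an entry of its own. Which alpha or gamma isoform was expressed therefore cannot be read from these files. The beta entries Pcdhb1 to Pcdhb22 follow each other from 37424652 to 37681073, and their order along the chromosome is that of their numbers. Pcdhb20 is annotated as a pseudogene in this release.

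The beta genes are close copies of each other, and the share of their sequence that 50-base reads can place was computed. Of all windows of 50 exon bases, 88.0% in Pcdhb12 and 88.3% in Pcdhb11 occur once in the genome, and 100% in Pcdhb1. Over all entries the lowest share was 84.8%, in Pcdha3, while Pcdhga9 had 98.1% and Pcdha4 90.2%. Reads from repeated stretches were not counted, so levels of the less unique entries are understated. On the minus strand, Gm10545 covers 2790 exon bases of the alpha entry and Gm16882 covers 1647 of the gamma entry. The count files are named as not stranded, and in such counting reads there are ambiguous and left out. Gm10545 itself had from 0 to 9 counts in a library and Gm16882 from 164 to 423.

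Each library held from 20813432 to 30497206 counts on genes. A list of 6 cortex markers summed to 509.3 to 581.8 CPM (counts scaled to the same library total) in the 8 cortex libraries and to 70.9 to 86.4 in cerebellum. The 8 cerebellum markers summed to 4287 to 5113 CPM in cerebellum and to 19.3 to 46.9 in cortex, so tissue labels and markers match, and no marker of either list was at 0 in a whole group. The variant is a missense change that gene counts do not show, and for 4 of the 8 mice (wild-type mice 1 and 2, A391T mice 3 and 4) the deposited RPKM table gives the libraries other names than the count files do. Under the table's names these mice exchange genotype, and both regions of a mouse stay together.

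Some libraries stood apart before any gene was compared. Choroid plexus markers (7 genes) summed to 37.4 CPM in cerebellum of wild-type mouse 3 and 34.7 of A391T mouse 4, against 906 to 2789 in the other 6 cerebellum libraries and at most 24.8 in cortex. Striatal markers (6 genes) summed to 228 CPM in cortex of A391T mouse 3, against 550 to 796 in the other 7 cortex libraries, and to 192 to 264 in cerebellum. Microglial markers (5 genes) lay between 301 and 357 CPM in cortex and between 81.3 and 112 in cerebellum. Oligodendrocyte markers (5 genes) ranged from 3828 to 6277 CPM over the 16 libraries and endothelial markers (4 genes) from 155 to 233. Blood markers (3 genes) ranged from 56.3 to 112 CPM, and astrocyte markers (6 genes) from 2484 to 3051 in cerebellum and from 3178 to 3794 in cortex. In none of these lists was a marker at 0 in a whole group. Cortex of wild-type mouse 4 was the shallowest library, with 20813432 counts, and had the largest share of alignments that were not unique, 12.1%. Cerebellum of A391T mouse 1 had the smallest such share, 8.41%, the smallest share on no gene, 10.2%, and the largest ambiguous share, 2.75%.

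The 25 entries together received from 20515 to 34483 counts in a library, between 0.0986% and 0.123% of all counts on genes. The gamma entry held most of them, from 69.9% to 73.3% of the counts on the 25 entries. The alpha entries held from 13.7% to 18.5% and the beta entries from 11.2% to 13.9%. The split differed between the regions. In wild-type mice the alpha share was 18.0% ± 0.586 (SD, n = 4) in cortex and 14.4% ± 0.447 (SD, n = 4) in cerebellum. The beta share moved the other way, from 11.7% ± 0.382 in cortex to 13.3% ± 0.266 in cerebellum. In neither cluster did the 4 cortex libraries overlap the 4 cerebellum libraries. A391T mice gave alpha shares of 17.1% ± 0.566 and 14.1% ± 0.403 and beta shares of 11.5% ± 0.168 and 13.6% ± 0.385, again without overlap. These shares do not depend on how libraries are scaled. In bulk tissue, fewer cells that express a gene and less RNA per cell cannot be told apart.

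**Figure D1:**
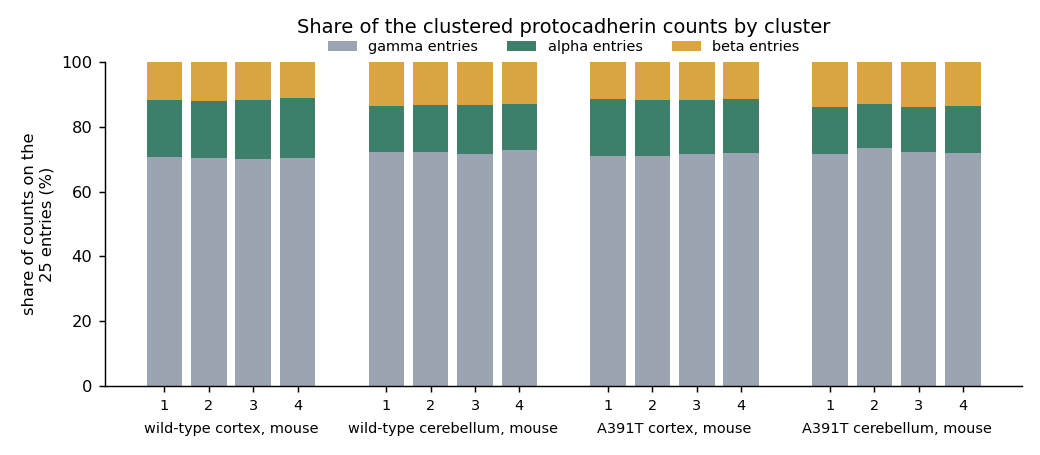
Share of the counts on the 25 clustered protocadherin entries held by the gamma, alpha and beta entries, in percent, with 1 bar for each of the 16 libraries. The gamma entry takes from 69.9% to 73.3% of every bar, and the alpha part is larger in each cortex library than in each cerebellum library.

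Levels were compared between genes as CPM per kilobase of the exon bases that no other gene covers. On this scale the gamma entry Pcdhga9 was highest. Its level in wild-type cortex was 28.8, 29.1, 28.8 and 25.4 in mice 1 to 4, and in wild-type cerebellum 30.8, 31.1, 31.5 and 31.3. Mouse 4 was the low cortex library. The alpha entry Pcdha4 followed, with 8.70, 8.94, 9.32 and 8.27 in wild-type cortex and 7.29, 7.63, 8.03 and 7.43 in wild-type cerebellum. Every cortex library lay above every cerebellum library. The levels of these 2 entries average over alternative first exons, so they are not levels of a single mRNA. Pcdha3, the small separate alpha entry, had a level of 1.16 ± 0.399 in wild-type cortex and 1.13 ± 0.201 in wild-type cerebellum (SD, n = 4).

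Within the beta cluster Pcdhb17 was the highest member in all 4 groups and took the most beta counts in all 16 libraries. Its level was 5.71, 5.51, 5.65 and 5.16 in wild-type cortex and 5.60, 4.88, 6.27 and 5.33 in wild-type cerebellum, and the regions overlapped. Pcdhb9 came next in both regions of wild-type mice, with 4.44, 4.24, 3.62 and 3.60 in cortex and 4.89, 4.72, 4.38 and 4.52 in cerebellum. Pcdhb20 was the third, at 3.38 ± 0.280 in wild-type cortex and 4.12 ± 0.188 in wild-type cerebellum. The ranges of Pcdhb9 and Pcdhb20 touched in wild-type cortex, where the highest Pcdhb20 value (3.80) lay above the lowest Pcdhb9 value, although Pcdhb9 was higher in each of the 4 libraries. Pcdhb12 followed in wild-type cortex (2.76 ± 0.495) and was lower down the order in wild-type cerebellum (2.83 ± 0.418), where Pcdhb14 and Pcdhb22 stood above it.

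At the other end, Pcdhb1 had from 0 to 6 counts in a library. Of the 16 libraries none had more than 6 counts on it, and a count of 0 allows up to 3. It was the lowest member in both regions and was too low to test, so 24 of the 25 entries entered every comparison. Among the beta members that were tested, the lowest were Pcdhb6 in wild-type cortex (0.595 ± 0.0930) and Pcdhb2 in wild-type cerebellum (0.589 ± 0.0767). Pcdhb6, Pcdhb4 (0.603 ± 0.153) and Pcdhb2 (0.692 ± 0.228) were within each other's spread in wild-type cortex. The remaining tested beta members lay between these and Pcdhb12 in cortex. The order of the 22 beta levels was shared between wild-type cortex and cerebellum with a Spearman rho of 0.83. Between wild-type and A391T mice rho was 0.99 in cortex and 0.98 in cerebellum. These are descriptions over the same 22 genes, whose length and unique share are the same in every library.

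**Figure D2:**
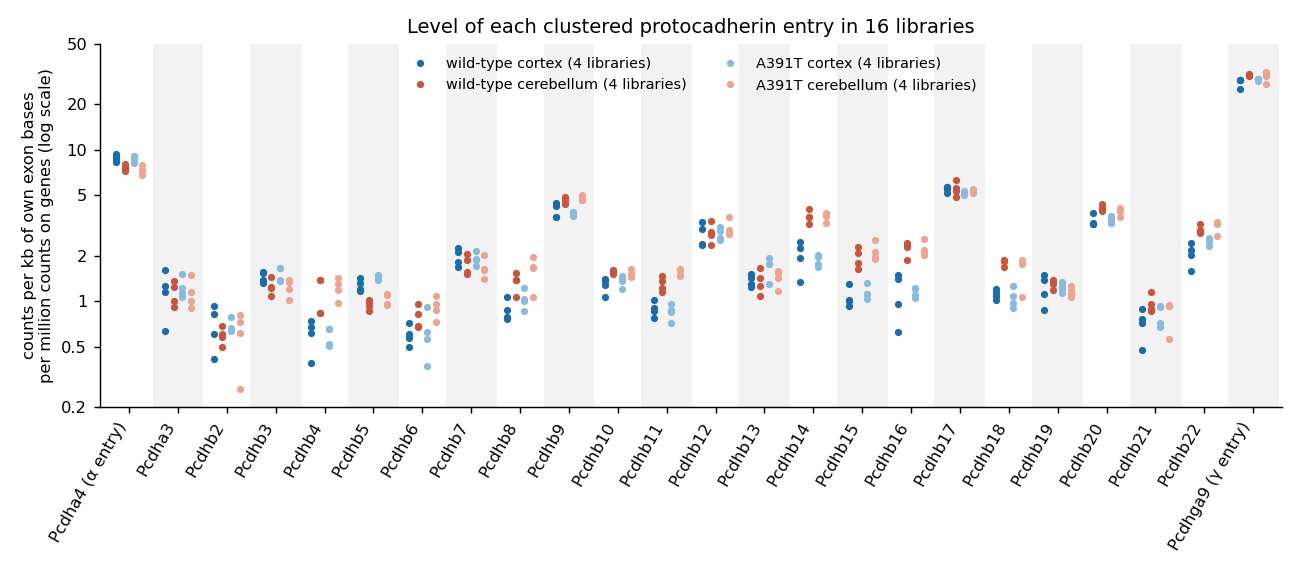
Level of 24 clustered protocadherin entries in each of the 16 libraries, in CPM per kilobase of own exon bases, on a log scale, with the alpha entries on the left, the beta genes by number and the gamma entry on the right. Pcdhb17 is the highest beta gene in every group, and Pcdhb1, at 0 to 6 counts per library, is not drawn.

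The question of the region comparison was whether a gene differs between cortex and cerebellum. A call required a 2-fold difference in either direction together with an adjusted p-value under 0.05. No clustered protocadherin met both criteria in wild-type mice, while 24.7% of the 16040 genes tested did (10.5% higher and 14.2% lower in cerebellum). Smaller differences were present. By the adjusted p-value alone 11 of the 24 tested entries passed, 8 higher and 3 lower in cerebellum, against a background of 67.8% of all genes (34.7% higher and 33.1% lower). Members past the adjusted p-value alone were named after their values were seen. The median log2 fold change of the 24 entries was 0.12, beside 0.018 over all genes. It was 0.037 without cortex of wild-type mouse 4, and 0.24 with library totals, which moved the median of all genes to 0.14. Fold changes below are cerebellum over cortex on the log2 scale, and adjusted p-values are those of the quasi-likelihood test of edgeR, adjusted over all genes by Benjamini-Hochberg.

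The 4 largest differences in wild-type mice were those of Pcdhb16, Pcdhb15, Pcdhb4 and Pcdhb14. All are beta protocadherins, transmembrane proteins with cadherin repeats outside the cell. The level of Pcdhb16 was 0.958, 1.49, 1.39 and 0.620 in the cortex libraries of mice 1 to 4 and 1.87, 2.28, 2.38 and 2.43 in the cerebellum libraries. The groups did not overlap, although the cortex values spread widely and mouse 4 was the lowest. Its log2 fold change was 0.86 (SE 0.23, adjusted p = 0.0067), a 1.82-fold difference. Without the cortex library of mouse 2 the log2 fold change was 1.05, and Pcdhb16 then passed both criteria. Over the 8 fits that each left out 1 library it ranged from 0.65 to 1.05, and all 8 passed the adjusted p-value.

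Pcdhb15 had levels of 1.00, 1.29, 1.02 and 0.928 in cortex and 1.63, 1.78, 2.08 and 2.27 in cerebellum. Every cerebellum library lay above every cortex library, with a log2 fold change of 0.74 (SE 0.16, adjusted p = 0.0015). Pcdhb14 had levels of 1.93, 2.44, 2.24 and 1.33 in cortex and 4.07, 3.62, 3.59 and 3.22 in cerebellum. Here too the groups stayed apart, with a log2 fold change of 0.73 (SE 0.17, adjusted p = 0.0030). Pcdhb4 had levels of 0.614, 0.670, 0.740 and 0.388 in cortex and 1.37, 0.831, 1.38 and 0.830 in cerebellum. The cerebellum libraries fell into a high pair (mice 1 and 3) and a low pair (mice 2 and 4) that still lay above all cortex libraries, and the log2 fold change was 0.73 (SE 0.24, adjusted p = 0.020). Without the cerebellum library of mouse 1 or of mouse 3, Pcdhb4 no longer passed the adjusted p-value.

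**Figure D3:**
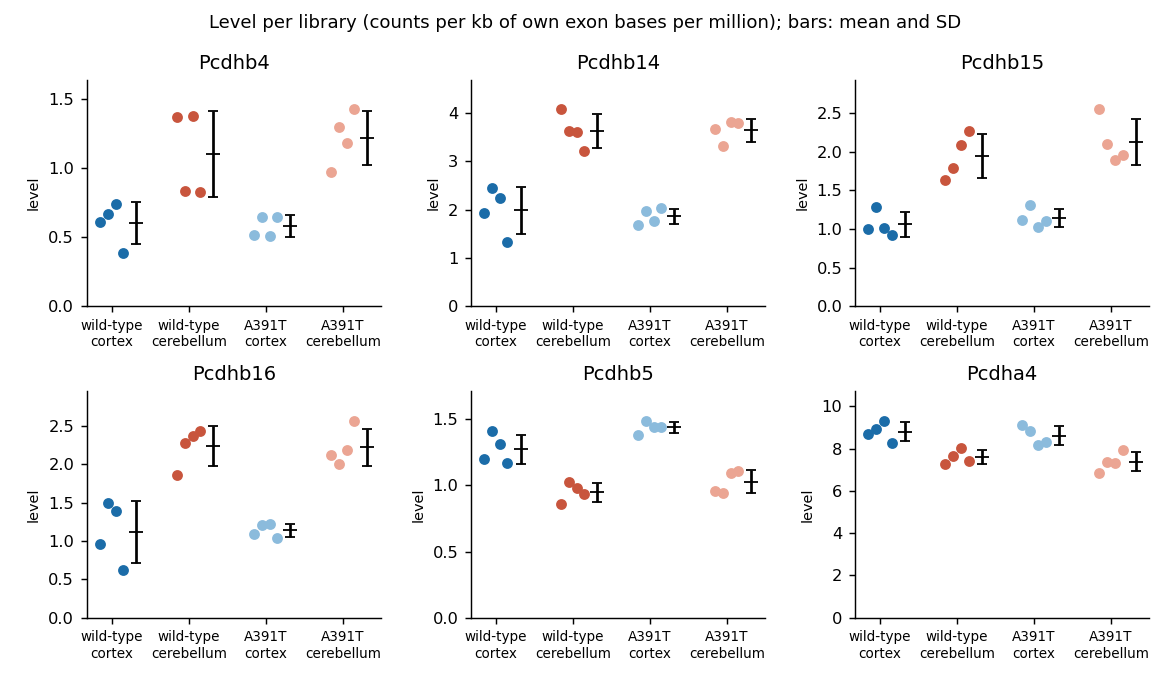
Level in each library (points, mice 1 to 4 from left to right) with the group mean and SD (bars, n = 4) for 5 beta genes and the alpha entry Pcdha4, in CPM per kilobase of own exon bases, from 0. Pcdhb4, Pcdhb14, Pcdhb15 and Pcdhb16 are higher in every cerebellum library than in any cortex library of the same genotype, and Pcdhb5 and Pcdha4 are lower.

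Pcdhb18 differed by less but with the smallest adjusted p-value of the family. Its levels were 1.08, 1.21, 1.14 and 1.02 in cortex and 1.67, 1.86, 1.84 and 1.84 in cerebellum. The spread in both regions was small, and the log2 fold change was 0.57 (SE 0.10, adjusted p = 0.00045). Pcdhb8 (0.49), Pcdhb11 (0.42) and Pcdhb22 (0.41) were also higher in cerebellum, with adjusted p-values of 0.023, 0.015 and 0.020. Pcdhb8 no longer passed without the cerebellum library of mouse 1 or the cortex library of mouse 1 or 4, and Pcdhb11 without the cerebellum library of mouse 3, which had few choroid plexus counts.

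The entries that were lower in cerebellum were Pcdhb5, Pcdhb3 and the alpha entry. The level of Pcdhb5 was 1.20, 1.41, 1.31 and 1.17 in wild-type cortex and 0.858, 1.02, 0.980 and 0.933 in wild-type cerebellum. The groups did not overlap, and the log2 fold change was -0.55 (SE 0.13, adjusted p = 0.0023). For Pcdha4, which pools alpha isoforms, the log2 fold change was -0.34 (SE 0.07, adjusted p = 0.00092), and it passed the adjusted p-value whichever library was left out. Pcdhb3 had a log2 fold change of -0.33 (SE 0.12, adjusted p = 0.030) and no longer passed the adjusted p-value without 3 of the 8 libraries in turn (cortex of mouse 3, cerebellum of mouse 1 or 4).

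Pcdhga9 and Pcdhb17, the gamma entry and the highest beta gene, did not pass the adjusted p-value. Pcdhga9 had a log2 fold change of 0.03 (SE 0.07, adjusted p = 0.71) and Pcdhb17 one of -0.12 (SE 0.09, adjusted p = 0.27). For Pcdhga9 the value turned to -0.04 without the cortex library of mouse 4. With library totals in place of TMM scaling it was 0.15 and passed the adjusted p-value (0.033), a scaling that moved the median of all genes from 0.018 to 0.14. Pcdhb17 took 14.2% ± 0.874 of the beta counts in wild-type cortex and 11.5% ± 1.04 in wild-type cerebellum (SD, n = 4), without overlap between the regions. Its level did overlap between them, as given above. Pcdhb14 took 5.31% ± 0.903 and 7.93% ± 0.662, and Pcdhb16 4.55% ± 1.37 and 7.52% ± 0.935, each again without overlap. The 3 largest beta members of a library held from 31.0% to 35.6% of its beta counts in wild-type cortex and from 29.1% to 30.6% in wild-type cerebellum.

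The cortex library of wild-type mouse 4 was low across the family. After TMM scaling 19 of the 21 tested beta genes lay below the mean of the other 3 wild-type cortex libraries, with a median difference of -0.337 on the log2 scale. Pcdha4 was at -0.209 and Pcdhga9 at -0.277, while the median over 13471 genes was -0.0229. Without this library the wild-type comparison still gave 11 entries past the adjusted p-value, with Pcdhb8 lost and Pcdhb2 gained, beside 11282 of 16268 genes. The library also had the highest oligodendrocyte marker sum of wild-type cortex (4837 CPM, against 4208 to 4307), the highest microglial (350 against at most 319), endothelial (233 against at most 205) and blood marker sums (95.6 against at most 71.4) and the lowest striatal one (550 against at least 603). These sums, its low depth and its share of non-unique alignments moved with the difference, and their part in it was not tested.

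Choroid plexus markers were high in 6 of the 8 cerebellum libraries, and their part in the region differences was not tested. In the wild-type cerebellum library with few of these counts (mouse 3), 7 of the 24 tested entries lay above the other 3 cerebellum libraries, 5 below and 12 within their range, beside 24.3% of all genes above and 29.7% below. Its levels of Pcdhb14 (3.59), Pcdhb15 (2.08) and Pcdhb16 (2.38) lay within the range of the other 3, and that of Pcdhb4 (1.375, against 0.8303 to 1.373) lay above. In the A391T cerebellum library with few choroid plexus counts (mouse 4), 13 entries lay above the other 3 libraries, 11 within their range and none below, beside 21% of all genes above and 26% below. There Pcdhb16 (2.57, against 2.007 to 2.181) and Pcdhb4 (1.43, against at most 1.30) were among the entries above, and Pcdhb14 and Pcdhb15 among those within. Without the cerebellum library of wild-type mouse 3, 9 entries passed the adjusted p-value in wild-type mice, beside 63.9% of all genes. Microglial markers were higher in cortex in all libraries, and their part was not tested either.

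The same contrast in A391T mice used other animals and no shared library. Again no entry passed both criteria, against 24.7% of 16005 genes (9.8% higher and 14.9% lower), and 12 of 24 passed the adjusted p-value alone, 7 higher and 5 lower in cerebellum (background 62.8%, with 31.6% higher and 31.3% lower). Without cortex or cerebellum of A391T mouse 2 it was 7 of 24 each time, 5 higher and 2 lower, beside 57.2% and 59% of all genes. The median log2 fold change was 0.0066, beside 0.026 over all genes, and lay between -0.018 and 0.061 when libraries were left out in turn. Pcdhb4 had levels of 0.519, 0.650, 0.507 and 0.649 in A391T cortex and 0.972, 1.30, 1.18 and 1.43 in A391T cerebellum. Its log2 fold change of 0.93 (SE 0.16, adjusted p = 0.00050) was the largest of the family in A391T mice. It became 1.06 with library totals and 1.02 without the cerebellum library of A391T mouse 1, which took it past both criteria.

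Pcdhb14 had levels of 1.69, 1.96, 1.75 and 2.03 in A391T cortex and 3.66, 3.30, 3.82 and 3.79 in A391T cerebellum, with a log2 fold change of 0.84 (SE 0.10, adjusted p = 3.9e-05). Pcdhb16 had 1.09, 1.21, 1.22 and 1.04 in cortex and 2.13, 2.01, 2.18 and 2.57 in cerebellum, with a log2 fold change of 0.83 (SE 0.11, adjusted p = 8.7e-05). The cortex values of both genes spread less than in wild-type mice, and the regions did not overlap. Pcdhb15 (0.77), Pcdhb11 (0.74), Pcdhb18 (0.50) and Pcdhb9 (0.22) were also higher in cerebellum, with adjusted p-values of 0.00084, 0.00036, 0.036 and 0.028. Pcdhb18 passed the adjusted p-value in only 2 of the 8 fits that each left out 1 library, and its cerebellum level in A391T mouse 1 was 1.06, against 1.76 to 1.88 in mice 2 to 4. In that library 16 of the 21 tested beta genes lay below the mean of the other 3 A391T cerebellum libraries, with a median difference of -0.0982 on the log2 scale (0.016 over all genes), and Pcdhga9 was at -0.163. The library of mouse 4 deviated the other way, with 5 of 21 below, a median difference of 0.153 and Pcdhga9 at 0.116. Of the A391T cerebellum libraries, that of mouse 1 had the lowest cerebellum marker sum (4287 CPM, against 4385 to 4935), cortex marker sum (70.9 against at least 79.8), astrocyte sum (2484 against at least 2904) and microglial sum (81.3 against at least 89.3). Mouse 1 also had the highest endothelial (187 against at most 175), blood (112 against at most 98.1) and striatal sums (264 against at most 221). These sums and the alignment shares of mouse 1 moved with its low beta levels, and their part was not tested. Without the cerebellum library of mouse 1, 12 entries passed, with Pcdhb7 and Pcdhb13 lost and Pcdhb8 and Pcdhb22 gained, and 11797 genes in place of 10056.

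Lower in A391T cerebellum were Pcdhb5 (-0.62, adjusted p = 0.00050), Pcdhb3 (-0.42, adjusted p = 0.019), Pcdhb13 (-0.38, adjusted p = 0.047), Pcdha4 (-0.36, adjusted p = 0.00088) and Pcdhb7 (-0.32, adjusted p = 0.047). With the mouse as a block, which pairs the regions of 1 animal, Pcdhb3 (adjusted p = 0.055), Pcdhb13 (0.086), Pcdhb7 (0.085) and Pcdhb9 (0.071) no longer passed, and Pcdhb8 (log2 fold change 0.47) did, with an adjusted p-value of 0.035. Of the 8 fits that each left out 1 A391T library, Pcdhb13 passed in 1, Pcdhb7 in 2 and Pcdhb9 in 2. Without the cerebellum library of mouse 4, which had few choroid plexus counts, 8 entries passed, beside 60.4% of all genes.

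**Figure D4:**
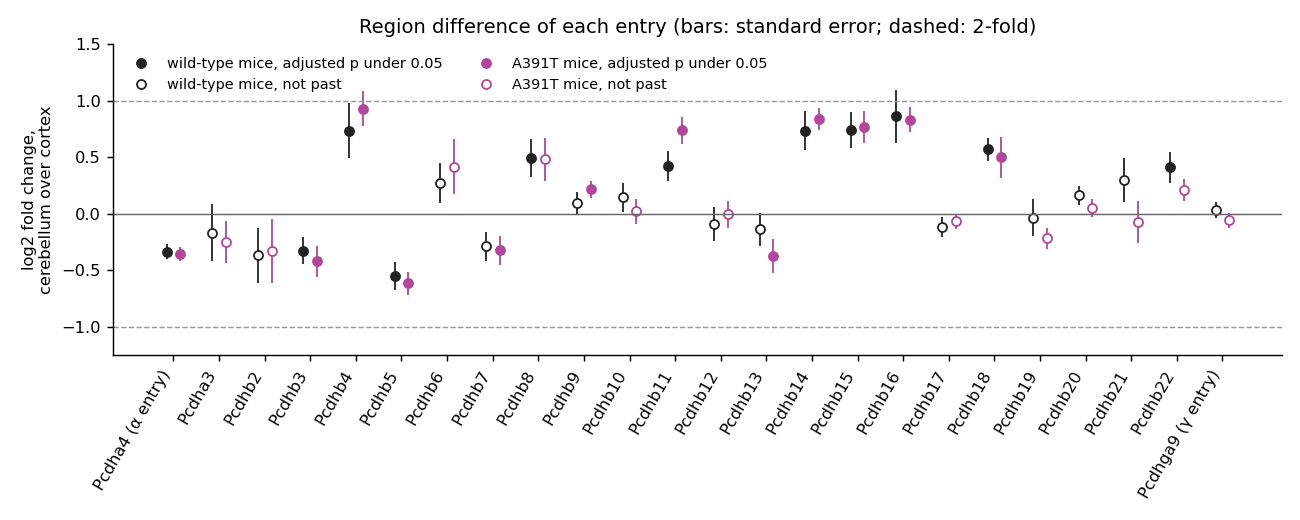
Log2 fold change of cerebellum over cortex for the 24 tested entries in wild-type mice (black) and A391T mice (purple), with standard errors as bars, filled where the adjusted p-value was under 0.05 and with dashed lines at a 2-fold difference. All values lie between -0.62 and 0.93, and Pcdhb4, Pcdhb14, Pcdhb15 and Pcdhb16 are the highest 4 in wild-type mice.

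Set side by side, the fold changes of 22 of the 24 entries had the same sign in both genotypes, beside 89.2% of the 15827 genes tested in both, and 9 passed the adjusted p-value in both with the same sign, beside 56.2% of those genes. These 9 were Pcdhb4, Pcdhb11, Pcdhb14, Pcdhb15, Pcdhb16 and Pcdhb18, higher in cerebellum, and Pcdhb3, Pcdhb5 and Pcdha4, lower. Pcdhb8 and Pcdhb22 passed in wild-type mice alone, and Pcdhb7, Pcdhb9 and Pcdhb13 in A391T mice alone. Which genes passed, and in which genotype, changed with the fit. With only the mice that have the same name in both sources, 2 a group, 2 entries (Pcdhb11 and Pcdhb15) passed in both genotypes, and without a filter on low counts 8 did. With the mouse as a block 9 passed in both, with Pcdhb8 in place of Pcdhb3, while Pcdhb3 and Pcdhb22 passed in wild-type mice alone and no entry in A391T mice alone. With the RPKM names, 9 passed in both genotypes, Pcdhb6, Pcdhb9 and Pcdhb20 in wild-type mice alone and Pcdha3, Pcdhb7 and Pcdhb8 in A391T mice alone. For these other fits the share of all genes that passed in both genotypes was not counted. Across the 24 entries the fold changes of the 2 genotypes had a Pearson correlation of 0.95, as a description over genes that are not independent. Across the 21 tested beta genes, Spearman's rho of the fold change with the order along the cluster was 0.38 in wild-type and 0.19 in A391T mice. The rise of Pcdhb14, Pcdhb15 and Pcdhb16, which are adjacent, was interrupted at Pcdhb17, which did not pass in either genotype, and the next gene, Pcdhb18, was higher in both. Pcdhb4, also higher, has Pcdhb3 and Pcdhb5, both lower in cerebellum, on either side.

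Counted by libraries and not by a test, 11 of the 24 entries in wild-type mice had every cerebellum library above every cortex library in CPM, and 2 had every cerebellum library below. Among all genes with at least 10 counts in 4 libraries the shares were 38.5% and 25.6%. With TMM scaling the counts for the family were 7 and 3, beside 32.2% and 30.6% of all genes. In A391T mice 7 entries lay above and 2 below, with backgrounds of 37.7% and 25.5%, and after TMM scaling 6 and 3, beside 31.2% and 29.5%. Pcdhb4, Pcdhb11, Pcdhb14, Pcdhb15, Pcdhb16 and Pcdhb22 lay above and Pcdha4 and Pcdhb5 below in both genotypes in CPM, beside 31% above and 21.7% below among all genes.

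The genotype comparisons asked whether the Slc39a8 variant was accompanied by a difference in a region. In cortex no entry passed the adjusted p-value, where 0.0126% of 15815 genes (2 genes) did, and none passed both criteria, where 0.00632% (1 gene) did. In cerebellum none passed the adjusted p-value, where 0 of 15668 genes passed. At an unadjusted p-value under 0.05 the count was also 0 of 24 in both regions by edgeR's test, beside 4.73% of all genes in cortex and 8.55% in cerebellum. Under other settings it was at most 2 in cortex (library totals, no filter on low counts, and without cortex of wild-type mouse 4) and at most 1 in cerebellum. The log2 fold changes, A391T over wild type, ran from -0.11 to 0.29 in cortex and from -0.19 to 0.26 in cerebellum. The largest in cortex was that of Pcdhb13, 0.29 (SE 0.14, adjusted p = 1.00), with levels of 1.24, 1.42, 1.51 and 1.30 in wild-type and 1.75, 1.76, 1.29 and 1.92 in A391T cortex. A391T mouse 3 lay among the wild-type values. In cerebellum it was that of Pcdhb11, 0.26 (SE 0.12, adjusted p = 0.53), with levels of 1.22, 1.16, 1.47 and 1.35 in wild-type and 1.48, 1.60, 1.46 and 1.62 in A391T cerebellum. The highest wild-type library stood just within the A391T range.

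For the abundant entries the standard errors were small. Pcdhga9 differed between genotypes by 0.06 (SE 0.07) in cortex and -0.01 (SE 0.06) in cerebellum, and Pcdha4 by -0.04 (SE 0.06) and -0.03 (SE 0.06). The interaction, which tests whether the region difference itself differs between genotypes, was past the adjusted p-value for none of the 24 entries and for 0 of 16589 genes. It was also past an unadjusted p-value under 0.05 for none of the entries, beside 4.85% of all genes, and for at most 1 under other settings. Its values ran from -0.36 (Pcdhb21, SE 0.28, adjusted p = 0.77) to 0.33 (Pcdhb11, SE 0.17, adjusted p = 0.77). Entries that passed in 1 genotype alone are therefore not shown to differ between the genotypes. These results compare animals under the names of the count files, and a missed threshold does not show that the genotypes are alike.

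The nonclustered protocadherins, single genes elsewhere in the genome that share the cadherin repeats but have no cluster of variable exons, are the nearest relatives. Of 12 such genes, 9 were lower and 1 higher in wild-type cerebellum past both criteria (background 14.2% and 10.5%), with a median log2 fold change of -1.84. Pcdh8, which neuronal activity induces, was at -3.81, with 46.4 ± 3.40 CPM in cortex and 3.60 ± 0.707 CPM in cerebellum (SD, n = 4). Pcdh10 (-2.77), Pcdh11x (-2.77), Pcdh19 (-2.72), whose human counterpart is an epilepsy gene, and Pcdh7 (-2.34) followed. Pcdh12, known from endothelium, was higher in cerebellum (1.53) at a low level of 6 to 36 counts a library. Pcdh9 (-0.04) and Pcdh20 (-0.10) did not pass. In A391T mice 9 were again lower and 1 higher past both criteria (background 14.9% and 9.8%), with a median of -1.98.

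**Figure D5:**
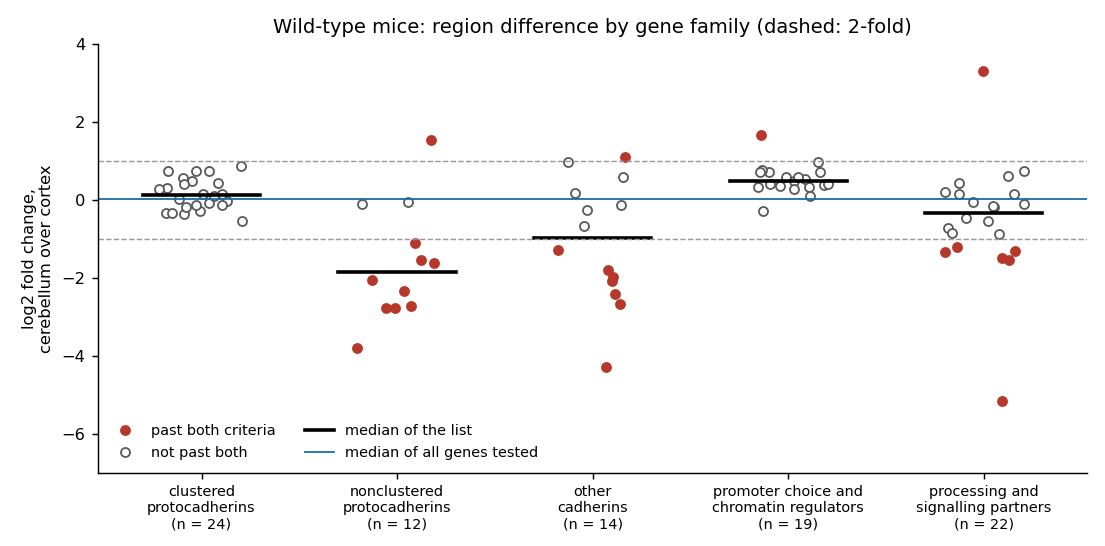
Log2 fold change of cerebellum over cortex in wild-type mice for the clustered protocadherins and 4 lists of related genes, 1 point per gene, filled red past both criteria, with the list median (black bar), the median of all genes tested (blue line) and a 2-fold difference (dashed). Values of the clustered protocadherins stay inside the dashed lines, while 10 of 12 nonclustered protocadherins lie outside them.

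Other cadherins also differed more widely. Of 14 genes, 7 were lower and 1 was higher in wild-type cerebellum past both criteria (background 14.2% and 10.5%), with a median of -0.98. The lower ones with the largest changes were Cdh9 (-4.30), Cdh13 (-2.67), Cdh6 (-2.43), Cdh10 (-2.07) and the seven-pass cadherin Celsr1 (-1.98). Cdh18 was higher (1.09). The counts were the same in A391T mice (background 14.9% and 9.8%), with a median of -1.18.

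Genes that act on promoter choice in the clusters or on chromatin and cohesin there were mostly a little higher in cerebellum. Of 19 genes, 16 were higher and 1 was lower by the adjusted p-value alone in wild-type mice (background 34.7% and 33.1%), with a median of 0.48. The same numbers held in A391T mice (background 31.6% and 31.3%), with a median of 0.42. Ctcf, the zinc finger protein that binds the variable promoters, was higher by a log2 fold change of 0.54, at 71.7 ± 1.55 CPM in cortex and 113.5 ± 3.72 CPM in cerebellum. Stag1, a cohesin subunit, was at 0.97 and the other cohesin genes Stag2, Smc1a, Smc3 and Rad21 at 0.76, 0.71, 0.59 and 0.48. Dnmt3b, a DNA methyltransferase linked to promoter choice, was the gene past both criteria, with 1.66 (0.789 ± 0.180 CPM in cortex and 2.73 ± 0.259 CPM in cerebellum). Pds5b was lower, at -0.29.

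Of 22 genes for processing or signalling of protocadherins (the sheddase Adam10, gamma-secretase subunits, kinases and the WAVE complex), 1 was higher and 6 were lower in wild-type cerebellum past both criteria (background 10.5% and 14.2%), with a median of -0.33. Ret, a receptor kinase that binds protocadherins, was higher (3.30). Among the lower genes Ptk2b, a kinase that the intracellular part of alpha and gamma protocadherins inhibits, was at -5.15, the WAVE complex member Wasf1 at -1.54, Prkca at -1.50, Nlgn1 at -1.34, Abi2 at -1.32 and Ptk2 at -1.22. In A391T mice 1 was higher and 6 were lower (background 9.8% and 14.9%), with a median of -0.26. No gene of these 4 lists passed the adjusted p-value between genotypes or in the interaction.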

How the data were processed

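PolyA-selected, directional libraries were aligned by the authors with STAR to mm9 and counted per gene with HTSeq, in files they name as not stranded. The deposited counts are whole numbers with no normalization. The authors also deposited RPKM values, whose library names were compared with the count files, and the gene length of that table served as an alternative. Of all entries of a count file, 10.2% to 13.2% lay on no gene, 2.20% to 2.75% were ambiguous and 8.41% to 12.1% were not uniquely aligned, and these stayed out.

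Counts were tested with edgeR 4.0.16 (R 4.3.3, limma 3.58.1) after filterByExpr (minimum count 10) and TMM scaling, by its quasi-likelihood test. P-values were adjusted over all tested genes by Benjamini-Hochberg, and the code was tested on simulated data. A call needed an adjusted p-value under 0.05 and a 2-fold difference. Exon bases came from GENCODE for NCBIM37, and the windows were counted on both strands of that genome. The levels and figures used Python 3.11.15 with pandas 2.3.3. P-values measure the spread between the 4 libraries of a group, and floors and intervals cover counting error only.

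The members and lists were chosen with earlier results of these data known. The genes named by rule were the highest and lowest members of each cluster and members past both criteria. From each list the rule took up to 5 genes with the largest fold changes past both criteria. Further list genes, among them Ctcf, the cohesin genes, Pds5b, Pcdh9 and Pcdh20, were named outside this rule. The regions of a mouse come from the same animal, and their deviations correlated across genes from -0.0909 to 0.119 in wild-type mice and from -0.0994 to 0.0225 in A391T mice. Between regions of different mice the correlations ran from -0.167 to 0.152 in wild-type and from -0.0962 to 0.0891 in A391T mice.

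Alternatives were library totals, RLE size factors, DESeq2 1.42.0, other filters, all 16 libraries in one model, a test against a 2-fold change, the names of the RPKM table, only mice with matching names, the mouse as a block and each library left out. Levels per unique window and TMM-scaled overlap were added after the data were seen.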

Additional observations from a re-analysis of the deposited data

Results flagged for a closer look

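Among 108 sets of 4 libraries (the levels of 24 entries and the 3 cluster sums in each group), 9 held a library whose distance from the nearest of the other 3 passed Dixon's 95% critical value as a part of the whole range, where chance alone gives about 1 in 20. In wild-type cortex the Pcdhga9 level of mouse 4 was 25.4, against 28.8 in the nearest library, and the gamma counts were 692.8 CPM against 785.9. In A391T cortex the Pcdhga9 level of mouse 3 was 28.5, against 29.5, and the gamma counts were 778.5 CPM against 805.8. Both pairs are the same counts on 2 scales. Cortex of A391T mouse 3 is also the cortex library with the fewest striatal marker counts, and it had the highest oligodendrocyte (4870 CPM, against 4225 to 4362) and astrocyte marker sums (3794, against 3200 to 3335) of A391T cortex. Their part was not tested.

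Pcdhb18 stood apart in cerebellum of mouse 1 in both genotypes, at 1.06 against 1.76 in A391T mice and at 1.67 against 1.84 in wild-type mice. Pcdhb21 was at 0.558 in cerebellum of A391T mouse 1, against 0.933 in the nearest library. That A391T library also had the smallest share of non-unique alignments, 8.41%, whose part was not tested. Pcdhb20 was at 3.80 in cortex of wild-type mouse 1, against 3.27, and Pcdhb2 at 0.784 in cortex of A391T mouse 4, against 0.661. Pcdhb2 and Pcdhb21 rest on few counts, 20 to 69 and 46 to 136 in a library.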

How the results depend on the processing

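The count of members past both criteria was 0 in both region comparisons and rose to 1 under a few settings. In wild-type mice it was 1 under the names of the RPKM table, alone (Pcdhb16, 1.04) or with the mouse as a replicate block (Pcdhb16, 1.08), and with only the mice that have the same name in both sources (Pcdhb15, 1.07). It ranged from 0 to 1 when libraries were left out in turn, with the 1 being Pcdhb16 without cortex of mouse 2. In A391T mice it was 1 with library totals (Pcdhb4), and from 0 to 1 when libraries were left out (Pcdhb4 without cerebellum of mouse 1). By the adjusted p-value alone it was 11 in wild-type and 12 in A391T mice, beside 67.8% and 62.8% of all genes. These counts ranged from 8 to 11 and from 7 to 12 when libraries were left out. With only the mice of matching names, which are 2 a group, the wild-type count fell to 3, beside 7724 of 16260 genes. The lowest wild-type count came without cerebellum of mouse 1 (8, beside 10468 of 16257 genes). In A391T mice the lowest came without cortex or cerebellum of mouse 2 (7 each, beside 57.2% and 59% of all genes). The cause was not tested. With the mouse as a block, the pairing left 0 members past both criteria in either genotype and in the interaction. It gave 11 and 9 past the adjusted p-value, beside 10566 of 16040 and 9492 of 16005 genes. The genotype comparisons and the interaction had 0 members past the adjusted p-value under every setting run.

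Small fold changes turned sign. That of Pcdha3 in wild-type mice (-0.17) ranged from -0.38 to 0.011 when libraries were left out, and became 0.051 under the table's names, 0.11 with matching mice and 0.089 with the table's names and the block. Pcdhb17 became 0.0034 in wild-type and 0.062 in A391T mice with library totals, and 0.0091 with matching wild-type mice. Pcdhga9 (0.03) ranged from -0.036 (without wild-type cortex of mouse 4) to 0.061 when libraries were left out, and became 0.072 in A391T mice with library totals, which moved the median of all genes from 0.026 to 0.16 there.

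The median level over the 25 members was 1.27 in wild-type cortex and 1.55 in wild-type cerebellum. In cerebellum it was 1.36 with the table's gene length, 1.49 with TMM scaling and 1.70 per unique window, and with no division by length the cortex median was 5.47 CPM and the cerebellum median 5.43 CPM. Leaving out a library gave 1.23 to 1.33 and 1.53 to 1.56. Pcdhb17's part of the beta total in wild-type cortex was 15.4% per kilobase of own exon bases and 16.1% per kilobase of the table's length, and in cerebellum 12.6% and 13.3%. As a share of beta counts with no division by length it was 14.2% and 11.5%, and without single libraries 13.9% to 14.6% and 11.0% to 11.9%. Members with few counts, such as Pcdhb1, limit what can be seen by depth.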
